A study of Homo sapiens with 6 samples.

Results

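PA-1 and TOV21G are established human tumour lines that are both filed under the ovary but come from unlike cancers. PA-1 derives from an ovarian teratocarcinoma, a germ cell tumour, and TOV21G from an ovarian clear cell carcinoma, an epithelial tumour. The comparison set all 3 PA-1 libraries against all 3 TOV21G libraries, which is all 6 libraries of the series, whichever hairpin they carried. In each line, lentivirus delivered 1 of 3 short hairpin RNAs: a scrambled control, MEX3A hairpin 1 or MEX3A hairpin 2, so a line's 3 libraries hold 1 control and 2 knockdowns and are not repeats of a single condition. PA-1 was grown in EMEM with 10% serum and TOV21G in MCDB 105 and Medium 199 with 15% serum, so that line and medium cannot be told apart. Polyadenylated RNA was sequenced, and nothing in the labels says that the libraries came from separate cultures. The p-values thus measure the spread between these libraries, which mixes effects of the hairpins with variation that may be technical. The tissue label names the ovarian surface epithelium for both lines.

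Teratocarcinoma lines such as PA-1 keep features of the early embryo. In such cells the factors POU5F1, SOX2 and NANOG hold a self-renewing state, and LIN28 proteins block maturation of the let-7 microRNAs. Clear cell carcinoma of the ovary is known for glycogen-rich cytoplasm, for frequent loss of the chromatin remodelling subunit ARID1A and for inflammatory cytokines.

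MEX3A, the RNA-binding protein that the hairpins target, stood at 47, 14.9 and 18.8 TPM in PA-1 and 23.8, 13.8 and 9.93 TPM in TOV21G, given here and in every list of 3 values below in the order control, hairpin 1, hairpin 2. TPM, the deposited abundance scaled for transcript length and library size, is the level given throughout. Both knockdown libraries lay below the control in both lines, and the lines overlapped. The difference between lines did not pass the test (log2 fold change -0.61, SE 0.50, adjusted p = 0.348). Fold changes are TOV21G over PA-1, so a negative value is higher in PA-1. They come from edgeR's quasi-likelihood test with Benjamini-Hochberg adjustment over 15129 genes that passed a filter on low counts, and a gene is called at an adjusted p under 0.05. Where ranges over a line's 3 libraries are given, PA-1 stands first. A gene with no counts in 1 line gets a lower bound on its fold, set against a floor of 3 counts per library, and a gene with 1 to 3 counts there gets the ratio with a 95% counting interval. These cover counting error only.

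The 6 libraries held 14654628 to 19495162 counts. The first principal component, which parted the lines, took 88.57% of the variance of the log2 CPM, counts scaled to library size, and the second took 5.44%. Libraries correlated at 0.953 to 0.987 within a line and at 0.664 to 0.695 between lines, across genes, which are not independent replicates. A total of 3641 genes (24.1% of those tested) were higher in PA-1 and 3717 (24.6%) in TOV21G, and the median absolute log2 fold change of called genes was 1.67. Differences of at least 4-fold were called for 1596 genes (10.5%) higher in PA-1 and 1548 (10.2%) in TOV21G, and differences of at least 32-fold for 742 (4.9%) and 592 (3.91%). By level alone, 441 genes (1.12% of the 39282 in the tables) were at 1 TPM or more in all 3 PA-1 libraries and at 0.1 TPM or less in all 3 of TOV21G, and 300 (0.764%) had the reverse pattern. Such genes are called restricted to a line here. In bulk RNA, fewer cells of a type and less RNA per cell cannot be told apart.

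**Figure D1:**
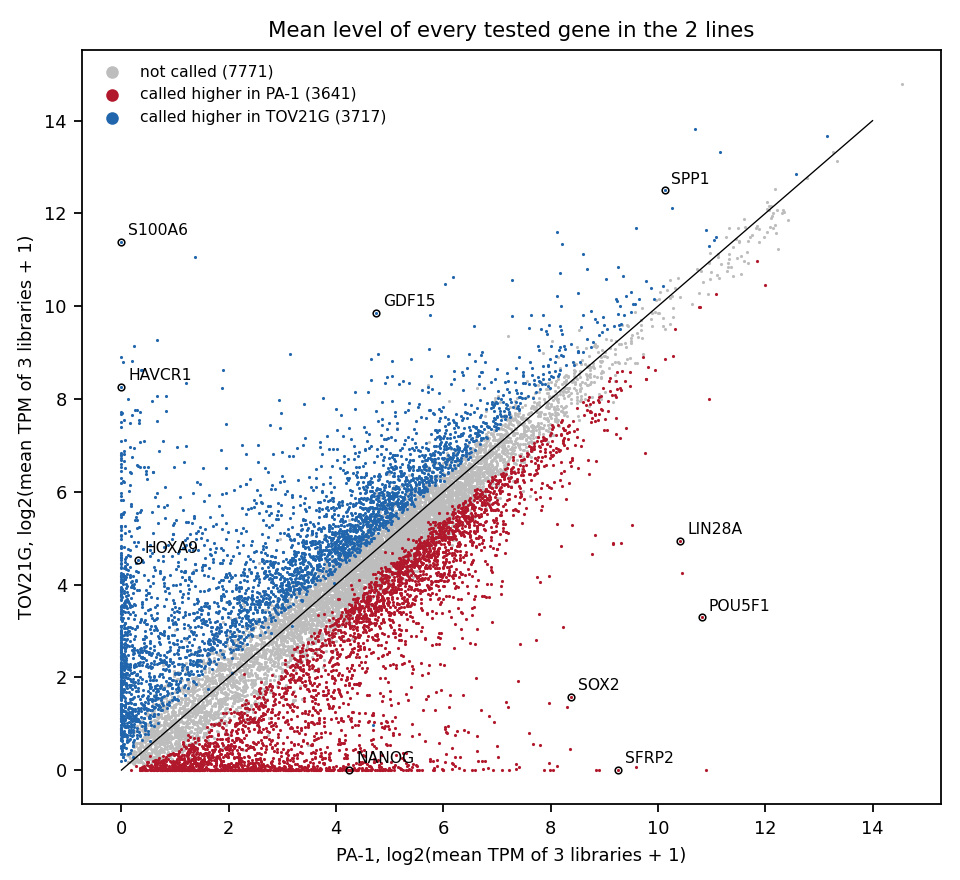
Mean level of the 15129 tested genes in PA-1 (horizontal, log2 of the mean TPM of 3 libraries plus 1) and TOV21G (vertical, same scale). Each point is a gene, coloured by its call, and the line marks equal levels. POU5F1, LIN28A and SOX2 lie far below the line, and HAVCR1 and S100A6 lie on the left edge, where the PA-1 mean is 0 or close to it.

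Genes of the pluripotent state were mostly higher in PA-1 (24.1% of all tested genes were), and several of its defining factors were at 0 in TOV21G. Of 52 listed genes 41 passed the filter, of which 34 were higher in PA-1 and 3 in TOV21G, and the median log2 difference was -6.11 (-5.71 with the genes at 0 in one line set to their bounds), against 0.02 over all tested genes. Restricted to PA-1 were 15 of the list. A gene seen in 1 line passes the filter only through that line and so had to differ. For this and the lists below the counts over tested members are a description. They are to be read against the shares over all tested genes, 24.1% higher in PA-1 and 24.6% in TOV21G. The list was drawn up with PA-1's tumour type in mind and with earlier results of these data known, so its direction is no test of the label. POU5F1, the octamer-binding factor of pluripotent cells, stood at 891, 2106 and 2395 TPM in PA-1 and 7.18, 13.2 and 5.95 TPM in TOV21G (log2 fold change -7.12, SE 0.51, adjusted p = 5.93e-05). SOX2, its binding partner, stood at 382, 319 and 294 TPM in PA-1 and 2.39, 2.05 and 1.54 TPM in TOV21G (log2 fold change -7.21, SE 0.26, adjusted p = 7.11e-06). Every PA-1 library was above every TOV21G library for both. Within PA-1 the control had the lowest POU5F1 and the highest SOX2 of the 3 libraries, and TOV21G held a low level of both.

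NANOG, the homeodomain factor of the same circuit, lies on chromosome 12. It was listed at 10.8, 19.7 and 23.6 TPM in PA-1 and 0 TPM in all 3 TOV21G libraries (at least 106-fold higher in PA-1, adjusted p = 0.000138). GDF3 and CD163L1, picked out after their values were seen because they lie beside NANOG among the expressed genes, were restricted to PA-1 as well. The 250 bases before the NANOG start at chr12:7789152-7789401 (GRCh38.p14, plus strand, RefSeq) are printed 5′ to 3′ because they hold an exact match to the letters ACAATGG of a SOX site, in capitals, which begins 112 bases before the start.
NANOG: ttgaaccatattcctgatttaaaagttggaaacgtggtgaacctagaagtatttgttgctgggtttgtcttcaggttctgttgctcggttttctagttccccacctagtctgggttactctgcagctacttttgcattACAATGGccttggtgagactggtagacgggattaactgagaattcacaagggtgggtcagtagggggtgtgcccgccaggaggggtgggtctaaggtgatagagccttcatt
These letters, on either strand, occurred in 2.6% of all 27305 promoter windows of this length, in 1.32% of 2734 windows of genes higher in PA-1, in 1.08% of 2779 higher in TOV21G and in 1.25% of 6022 tested genes that were not called. A match is a description and says nothing about binding.

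The zinc finger factor PRDM14, which represses differentiation genes in pluripotent cells, was at 167, 116 and 125 TPM in PA-1 and 0 TPM in all 3 TOV21G libraries (at least 543-fold higher in PA-1, adjusted p = 3.72e-05). SALL4, a further zinc finger factor of embryonic stem cells, was at 104, 118 and 93.1 TPM in PA-1 and 0.14, 0.21 and 0.07 TPM in TOV21G (log2 fold change -9.77, SE 0.29, adjusted p = 7.04e-06). Both were thus near or at 0 in TOV21G and strongly expressed in PA-1. TDGF1, the Nodal co-receptor, spanned 12.3 to 27.1 against 0 TPM (at least 70.6-fold). The noncoding transcript ESRG spanned 26.8 to 94.5 against 0 TPM (at least 398-fold). ALPL, the alkaline phosphatase by which such cells are often stained, spanned 93.5 to 128 against 0 to 0.07 TPM (4712-fold, 95% counting interval 845 to 186133). The neural MYC relative MYCN spanned 131 to 220.4 against 0.45 to 4.38 TPM (log2 fold change -5.71), while MYC itself went the other way, at 8.06 to 11.7 against 22.9 to 51.3 TPM (log2 fold change 2.09).

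A few members departed from the list. TFCP2L1 and KLF4, which are associated with the naive rather than the primed pluripotent state, were higher in TOV21G, at 0 to 0.16 against 6.1 to 28.9 TPM and 0.05 to 0.16 against 1.96 to 3.06 TPM. The epithelial adhesion molecule EPCAM, often used to sort pluripotent cells, was at 0.11, 0.11 and 0.17 TPM in PA-1 and 14.9, 23.1 and 9.24 TPM in TOV21G (log2 fold change 6.89, SE 0.52, adjusted p = 6.94e-05), so that the teratocarcinoma line held almost none. ESRRB and FOXD3 were higher in PA-1 but low there, at 0.47 to 0.8 against 0 to 0.09 TPM and 1.37 to 3.53 against 0 to 0.06 TPM. CDH1, which encodes E-cadherin, was at 1.08, 1.96 and 1.12 TPM in PA-1 and 1.26, 0.54 and 0.93 TPM in TOV21G, low and overlapping in both lines. ZFP42, a further marker of pluripotent cells, had 0.09 TPM in 1 PA-1 library and 0 in the other 5.

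**Figure D2:**
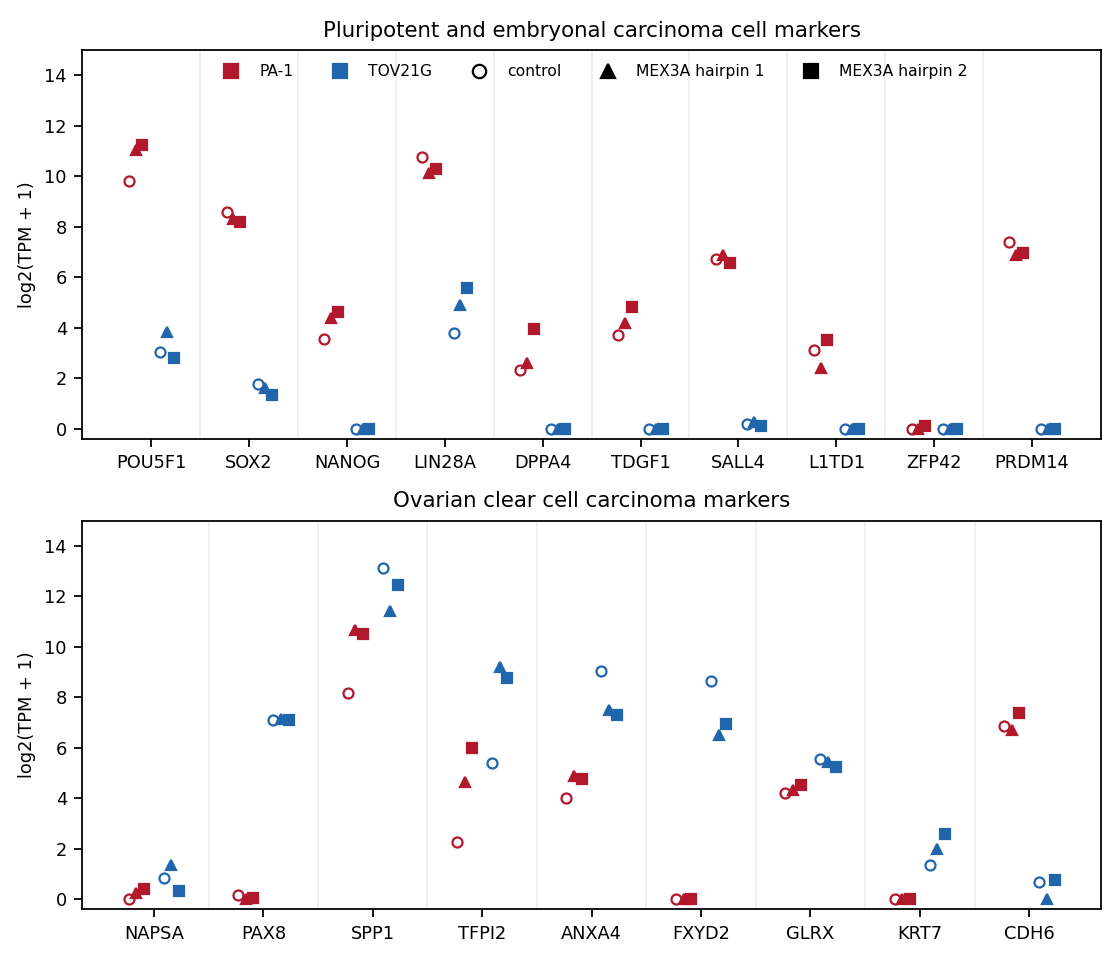
Level of 10 markers of pluripotent and embryonal carcinoma cells (top) and 9 markers of ovarian clear cell carcinoma (bottom) in each library, as log2(TPM + 1). Red is PA-1, blue is TOV21G, and symbols give the hairpin. In the top panel 9 of 10 markers are higher in PA-1, all but ZFP42. In the bottom panel 7 are higher in TOV21G, CDH6 is higher in PA-1 and NAPSA was not tested.

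The microRNAs of the miR-302 cluster mark human pluripotent cells. Mature microRNAs were not measured, but their host transcript MIR302CHG (chr4:112646720-112650051, GRCh38.p14, minus strand) was. It held 2520 counts in PA-1 and 0 in TOV21G, which is at least 231-fold, and in PA-1 it stood at 65.6 CPM in hairpin 2, 41.3 CPM in hairpin 1 and 33.9 CPM in the control. This gene was picked out after its values were seen. The 3p arms are printed 5′ to 3′ with the seed, bases 2 to 8, in capitals, to show that a single seed recurs in 4 of the 5 microRNAs that the transcript spans.
hsa-miR-302a-3p: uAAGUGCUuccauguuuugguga
hsa-miR-302b-3p: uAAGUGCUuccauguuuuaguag
hsa-miR-302c-3p: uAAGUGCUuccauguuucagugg
hsa-miR-302d-3p: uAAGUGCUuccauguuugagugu
hsa-miR-367-3p: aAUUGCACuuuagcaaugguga
The miR-302 arms share AAGUGCU, and miR-367 has AUUGCAC. In TOV21G the counterpart was MIR100HG, host of miR-100 and let-7a-2 on chromosome 11, also picked out after its values were seen, with 2126 counts against 0 in PA-1.

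The LIN28 proteins and the oncofetal genes that let-7 represses formed a second block that was high in PA-1. All 20 listed genes passed the filter, of which 13 were higher in PA-1 and 1 in TOV21G, and the median log2 difference was -1.62. LIN28B was at 106, 85.2 and 94.3 TPM in PA-1 and 0 TPM in all 3 TOV21G libraries (at least 1094-fold higher in PA-1, adjusted p = 1.89e-05). LIN28A was at 1740.1, 1118 and 1242 TPM in PA-1 and 12.8, 29.1 and 47.1 TPM in TOV21G (log2 fold change -5.49, SE 0.52, adjusted p = 0.000166). The paralogs differed in TOV21G, where LIN28A was present at a low level and LIN28B was listed at 0. TRIM71, a let-7 target that encodes an RNA-binding ubiquitin ligase, spanned 228 to 285 against 0 to 0.27 TPM (log2 fold change -10.97). The chromatin protein HMGA1 spanned 1719 to 2251 against 191 to 312 TPM (log2 fold change -2.79). IGF2BP1, which stabilises oncofetal messages, spanned 202 to 247 against 12.5 to 19.5 TPM (log2 fold change -3.65). BEGAIN was the list's exception, at 0.24 to 1.05 against 39.7 to 126 TPM (log2 fold change 7.89).

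HOX genes, which encode position along the body axis, and SOX and ZIC genes, which mark early neural and pluripotent tissue, split the lines in opposite directions. Of 39 listed HOX genes 31 passed the filter, of which 30 were higher in TOV21G, and the median log2 difference was 8.24 (4.09 with the genes at 0 in one line set to their bounds). Restricted to TOV21G were 16 of them. The summed level of the HOXA cluster on chromosome 7 was 29.5 to 37.6 TPM in PA-1 and 608 to 1142 TPM in TOV21G. For HOXB on chromosome 17 the sums were 0.1 to 0.85 and 31.8 to 45.7 TPM. For HOXC on chromosome 12 they were 0.07 to 0.34 and 46.5 to 74.5 TPM, and for HOXD on chromosome 2 they were 2.15 to 3.66 and 34.5 to 50.8 TPM. PA-1 thus expressed little beyond the HOXA cluster. HOXA10, a gene of uterine and Mullerian duct identity, was at 0, 0.18 and 0.73 TPM in PA-1 and 309.7, 632 and 246 TPM in TOV21G (log2 fold change 10.34, SE 0.75, adjusted p = 6.06e-05). HOXA9, the tubal member, was at 0.23, 0.31 and 0.18 TPM in PA-1 and 28.3, 14 and 24.3 TPM in TOV21G (log2 fold change 6.67, SE 0.47, adjusted p = 5.56e-05). HOXB7 was at 0 TPM in all 3 PA-1 libraries and 21.6, 25 and 22.8 TPM in TOV21G (at least 68-fold higher in TOV21G, adjusted p = 8.84e-05). Counts of adjacent HOX genes can share reads through joint transcripts such as HOXA10-HOXA9, itself among the most strongly separated genes in TOV21G, so single HOX values are less certain than the cluster sums.

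SOX genes were mostly higher in PA-1. Of 19 listed genes 14 passed the filter, of which 11 were higher in PA-1 and 2 in TOV21G, and the median log2 difference was -4.93 (-4.43 with the genes at 0 in one line set to their bounds). SOX3, of the same subgroup as SOX2, spanned 15.6 to 34 against 0 TPM (at least 91.2-fold). SOX21, a neural antagonist of that subgroup, spanned 29.9 to 67.8 against 0 TPM (at least 262-fold). Both had no counts in TOV21G. SOX4 and SOX17 went the other way, with SOX4 at 48.1 to 85 against 162 to 235 TPM and the endoderm and germ cell factor SOX17 at 0 against 0.72 to 0.92 TPM, low in both. ZIC1, ZIC2, ZIC4 and ZIC5, zinc finger factors of the neural plate, were higher in PA-1, led in level by ZIC2 at 321, 219 and 208 TPM in PA-1 and 1.81, 1.92 and 1.47 TPM in TOV21G (log2 fold change -7.01, SE 0.28, adjusted p = 1.03e-05). Of 11 tested MEIS and PBX genes, which encode HOX cofactors, 6 were higher in PA-1, for example MEIS2 at 47.1 to 66.3 against 1.31 to 1.56 TPM (log2 fold change -4.96), although HOX genes themselves were higher in TOV21G. Among PAX genes, PAX3 of the neural crest spanned 17.1 to 32.3 against 1.78 to 2.27 TPM, while the kidney and Mullerian factors PAX2 and PAX8 were higher in TOV21G.

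Neural genes did not move as one block. Of 79 listed genes 44 passed the filter, of which 22 were higher in PA-1 and 12 in TOV21G, and the median log2 difference was -0.57. The TOV21G share, 27.3%, lay near the 24.6% over all tested genes. LRRN1, a leucine-rich neuronal membrane protein, was at 107, 88.3 and 79 TPM in PA-1 and 0 TPM in all 3 TOV21G libraries (at least 1156-fold higher in PA-1, adjusted p = 1.89e-05). GAP43, the growth cone protein, was at 23.3, 52.3 and 61 TPM in PA-1 and 0 TPM in all 3 TOV21G libraries (at least 123-fold higher in PA-1, adjusted p = 0.00032). DPYSL3, a protein of growing axons, was at 361, 257 and 322 TPM in PA-1 and 0.23, 0.04 and 4.43 TPM in TOV21G (log2 fold change -7.44, SE 1.38, adjusted p = 0.00346). In TOV21G the neural POU factor POU3F3 was at 0 TPM in all 3 PA-1 libraries and 114, 68.3 and 49.2 TPM in TOV21G (at least 873-fold higher in TOV21G, adjusted p = 0.000105), and the adhesion molecule CHL1 spanned 0 against 14 to 29.3 TPM (at least 402-fold). EN2, a midbrain homeobox gene, spanned 0 against 11.8 to 21.8 TPM (at least 130.4-fold). TUBB3, a tubulin used as a neuronal marker, was present in both lines and higher in TOV21G, at 26.3 to 61.6 against 189 to 299 TPM (log2 fold change 2.51). Among the genes most widely separated over all genes tested, PA-1 held PTPRZ1, a receptor phosphatase of neural progenitors, at 241 to 275 against 0 TPM, its ligand PTN at 244 to 287 against 0 TPM and the endothelin receptor EDNRB at 228 to 242 against 0 TPM. TOV21G held RELN, the guidance protein reelin, at 0 to 0.02 against 128 to 249.9 TPM, and the Notch ligand DNER at 0 against 106 to 316 TPM.

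Clear cell carcinoma markers were higher in TOV21G in 24 of 36 tested cases. Of 42 listed genes 36 passed the filter, of which 6 were higher in PA-1 and 24 in TOV21G, and the median log2 difference was 1.76. PAX8, the Mullerian lineage factor, was at 0.12, 0 and 0.03 TPM in PA-1 and 136, 140.0 and 137 TPM in TOV21G (log2 fold change 11.60, SE 0.47, adjusted p = 1.08e-05). HAVCR1, also known as kidney injury molecule, was at 0 TPM in all 3 PA-1 libraries and 256, 209.9 and 454 TPM in TOV21G (at least 1495-fold higher in TOV21G, adjusted p = 0.000113). These were among the widest gaps of the whole comparison, with PA-1 at or near 0. FXYD2, a regulator of the sodium pump, was at 0 TPM in all 3 PA-1 libraries and 395, 90.3 and 123 TPM in TOV21G (at least 179-fold higher in TOV21G, adjusted p = 0.00134). IL6 was at 0, 0 and 0.34 TPM in PA-1 and 55.9, 104 and 213 TPM in TOV21G (1494-fold higher in TOV21G, 95% counting interval 413 to 12345, adjusted p = 0.00013). The calcium-binding annexin ANXA4 was at 15.2, 28.5 and 25.8 TPM in PA-1 and 521, 178 and 157 TPM in TOV21G (log2 fold change 3.78, SE 0.54, adjusted p = 0.00109), present in both lines. In TOV21G the control had more ANXA4 and FXYD2 than either knockdown library. KRT7, a keratin typical of Mullerian tumours, was restricted to TOV21G but low there, at 1.56, 2.95 and 5.02 TPM. NAPSA, the protease used in pathology, reached at most 1.56 TPM in TOV21G and was not tested.

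Other markers were less exclusive. SPP1, the secreted osteopontin, was at 284, 1618 and 1450.1 TPM in PA-1 and 9013, 2759 and 5622 TPM in TOV21G (log2 fold change 2.59, SE 0.70, adjusted p = 0.0177), high in both lines. TFPI2, a protease inhibitor that serves as a serum marker, was at 3.75, 24 and 62 TPM in PA-1 and 40.8, 583 and 435 TPM in TOV21G (log2 fold change 3.68, SE 1.16, adjusted p = 0.032). The TOV21G control lay below the hairpin 2 library of PA-1, so the lines overlapped, and TFPI2 did not pass in 4 of the 6 fits that left out 1 library (adjusted p = 0.0575 to 0.102). CDH6, a cadherin of kidney and ovarian tumours, was at 115, 102 and 166 TPM in PA-1 and 0.62, 0 and 0.7 TPM in TOV21G (log2 fold change -7.81, SE 0.87, adjusted p = 0.000337). The hypoxia-induced carbonic anhydrase CA9 spanned 8.19 to 21.4 against 0 TPM (at least 38.3-fold). These last genes, with the folate receptor FOLR1 at 37.7 to 46.1 against 9.15 to 11.9 TPM, were higher in the teratocarcinoma line. TGM2, a crosslinking enzyme, spanned 1.9 to 3.1 against 98.5 to 147 TPM (log2 fold change 5.71), and LGALS3, a galectin, spanned 5.06 to 7.89 against 219 to 271 TPM (log2 fold change 5.06), both higher in TOV21G.

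FGB, TM4SF4 and CDH16 were seen in TOV21G alone. FGB, which encodes the fibrinogen beta chain, was at 0 TPM in all 3 PA-1 libraries and 92, 17.6 and 195 TPM in TOV21G (at least 956-fold higher in TOV21G, adjusted p = 0.00198). TM4SF4, a membrane protein of liver and kidney, was at 0 TPM in all 3 PA-1 libraries and 26.9, 34.2 and 70.8 TPM in TOV21G (at least 146-fold higher in TOV21G, adjusted p = 0.000395). CDH16, the kidney cadherin, was at 0 TPM in all 3 PA-1 libraries and 5.14, 5.51 and 2.5 TPM in TOV21G (at least 29.8-fold higher in TOV21G, adjusted p = 0.000499). All 3 had no counts in PA-1. FGA, the fibrinogen alpha chain, spanned 0 against 3.4 to 6.36 TPM, and PKHD1, the gene of recessive polycystic kidney disease, spanned 0.04 to 0.2 against 1.66 to 4.93 TPM.

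The label of an ovarian surface epithelium was checked against 10 markers of that tissue and of mesothelium. KRT18, a simple epithelial keratin, was at 225, 242 and 349 TPM in PA-1 and 136, 263 and 205 TPM in TOV21G and was not called. KRT8 was higher in PA-1, at 213 to 310.1 against 74.8 to 157 TPM (log2 fold change -0.97), although it did not pass without the hairpin 2 library of PA-1 (adjusted p = 0.0649). WT1, a factor of mesothelium and gonad, was at 8.97, 8.53 and 13.1 TPM in PA-1 and 1.91, 1.3 and 0.69 TPM in TOV21G (log2 fold change -2.92, SE 0.44, adjusted p = 0.00135). MSLN, which encodes mesothelin, was at 0.29, 0.58 and 0.63 TPM in PA-1 and 16.1, 32.7 and 52.5 TPM in TOV21G (log2 fold change 6.20, SE 0.57, adjusted p = 0.000152). Of the 10 markers 4 were higher in PA-1, namely KRT8, WT1, GATA4 and CDH2, and MSLN alone was higher in TOV21G. CALB2, LHX9 and LRRN4 were at most 1.34 TPM in all 6 libraries, and UPK3B was at 0 in TOV21G and at most 0.17 TPM in PA-1. Over all 10 markers, 5 reached 1 TPM in all 3 PA-1 libraries and 3 did so in TOV21G, so neither line showed the whole set.

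Genes of the Mullerian tract, from which clear cell carcinoma is thought to arise through endometriosis, were added to that tissue's. Of 46 listed genes 32 passed the filter, of which 9 were higher in PA-1 and 18 in TOV21G, and the median log2 difference was 1.99 (1.95 with the genes at 0 in one line set to their bounds). ALDH1A1, an enzyme that makes retinoic acid, was at 0.15, 0.23 and 0.18 TPM in PA-1 and 437, 137 and 73.3 TPM in TOV21G (log2 fold change 10.29, SE 0.97, adjusted p = 0.000171). PAX2, a Mullerian and kidney factor, was at 0.79, 0.04 and 0.06 TPM in PA-1 and 19.9, 28.9 and 17.5 TPM in TOV21G (log2 fold change 6.62, SE 0.73, adjusted p = 0.000324). The orphan receptors NR2F1 and NR2F2 went opposite ways, with NR2F1 at 16.3 to 27.5 against 0 to 0.09 TPM (557-fold, 95% counting interval 154 to 4605) and NR2F2 at 0.55 to 1.33 against 77.6 to 120.3 TPM (log2 fold change 6.86). GATA4, a gonadal and endodermal factor, was low, at 1.92 to 3.44 against 0 to 0.25 TPM.

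**Figure D3:**
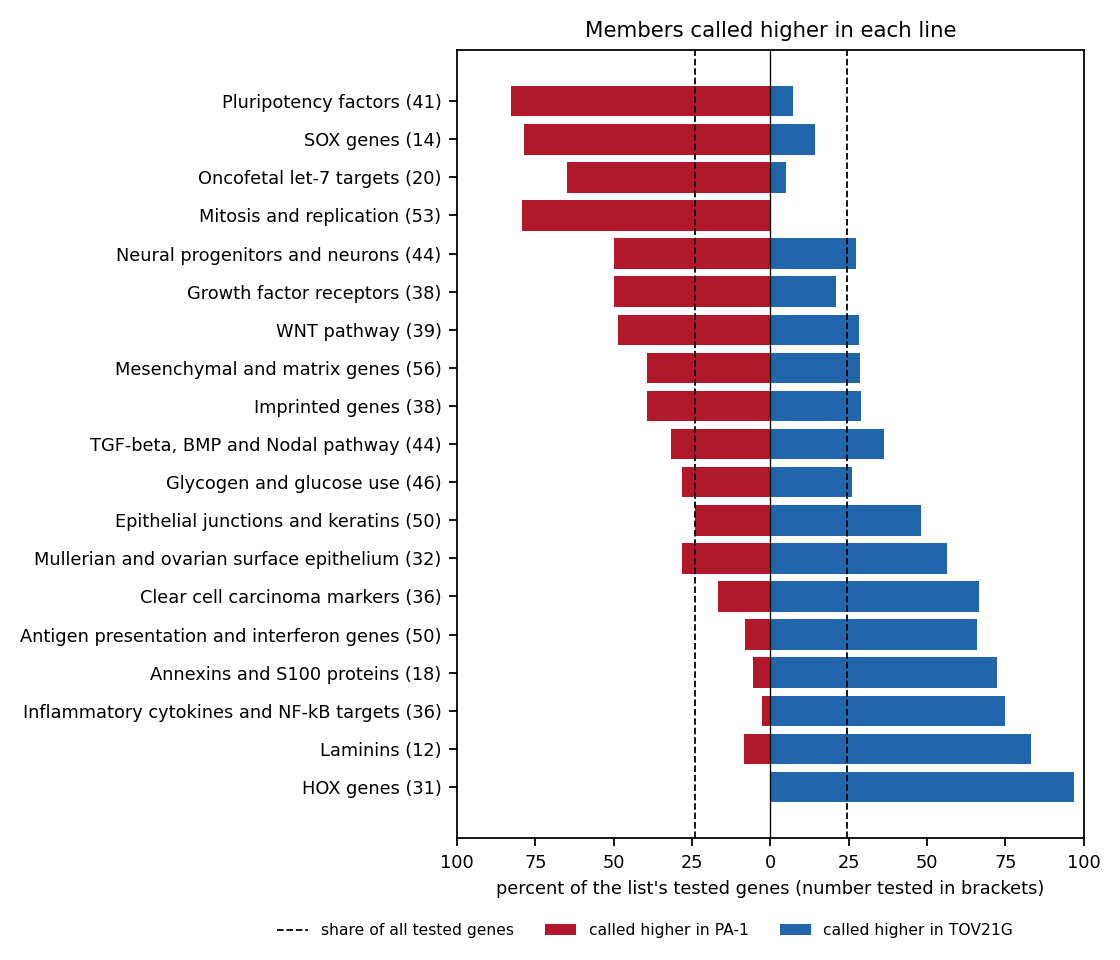
Share of the tested genes of 19 lists and families that were called higher in PA-1 (red, to the left) or in TOV21G (blue, to the right), with the number tested in brackets. Dashed lines mark the shares over all tested genes, 24.1% and 24.6%. Pluripotency factors, SOX genes and mitosis genes reach far left, and HOX genes, laminins and inflammatory genes reach far right.

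Epithelial genes were spread over both lines with more of them higher in TOV21G. Of 66 listed genes 50 passed the filter, of which 12 were higher in PA-1 and 24 in TOV21G, and the median log2 difference was 1.16. The tight junction gene CLDN1 was at 0.52, 0.57 and 0.66 TPM in PA-1 and 795, 699 and 358 TPM in TOV21G (log2 fold change 10.18, SE 0.43, adjusted p = 1.12e-05). CLDN6, an embryonic claudin, was at 579, 607 and 721 TPM in PA-1 and 9.3, 6.39 and 70.1 TPM in TOV21G (log2 fold change -4.25, SE 0.92, adjusted p = 0.00699). The hairpin 2 library of TOV21G had more CLDN6 than its other 2 libraries. In the knockdown libraries alone CLDN6 did not pass (adjusted p = 0.05). MAL2, a protein of apical transport, spanned 0.11 to 0.26 against 98 to 150.0 TPM (log2 fold change 9.51). CRB3, a polarity protein, spanned 0 against 10.7 to 15.7 TPM (at least 26.8-fold). DSC2, a desmosomal cadherin, went the other way, at 32.4 to 66 against 0.14 to 3.91 TPM (log2 fold change -4.88).

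Mesenchymal genes were split. Of 61 listed genes 56 passed the filter, of which 22 (39.3%) were higher in PA-1 and 16 (28.6%) in TOV21G. Over all tested genes the shares were 24.1% and 24.6%. The median log2 difference was 0.07. The TOV21G count was 10 without the hairpin 1 library of PA-1. VIM, the intermediate filament vimentin, was at 2936, 2367 and 4038 TPM in PA-1 and 7055, 1404 and 2775 TPM in TOV21G and did not pass the test (log2 fold change 0.46, SE 0.56, adjusted p = 0.527), so that both lines held high levels. CDH2, which encodes N-cadherin, was at 169.9, 191 and 216 TPM in PA-1 and 0.14, 0 and 2.08 TPM in TOV21G (log2 fold change -7.74, SE 1.14, adjusted p = 0.00124). FN1, fibronectin, was at 42.2, 169 and 133 TPM in PA-1 and 0.41, 1.21 and 2.14 TPM in TOV21G (log2 fold change -6.39, SE 0.82, adjusted p = 0.000638). THY1, a surface marker of stroma and pluripotent cells, was at 43.3, 58.8 and 133 TPM in PA-1 and 0.44, 0.17 and 0.06 TPM in TOV21G (log2 fold change -8.26, SE 0.74, adjusted p = 0.000135). All 3 were higher in PA-1 in every library. The type I collagen gene COL1A2 spanned 0.37 to 1.77 against 73.1 to 168 TPM (log2 fold change 7.01), and SNAI2, a repressor of epithelial genes, spanned 2.89 to 6.66 against 0 TPM (at least 22.3-fold). The cartilage collagen COL2A1 spanned 25.8 to 52.6 against 0 to 0.06 TPM (1718-fold, 95% counting interval 475 to 14194).

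Among adhesion families, cadherins were more often higher in PA-1, and laminins and integrins in TOV21G. Of 23 listed cadherin genes 12 passed the filter, of which 8 were higher in PA-1 and 1 in TOV21G, and the median log2 difference was -3.22 (-2.32 with the genes at 0 in one line set to their bounds). All 12 listed laminin genes passed the filter, of which 1 was higher in PA-1 and 10 in TOV21G, and the median log2 difference was 1.84. Of 26 listed integrin genes 19 passed the filter, of which 3 were higher in PA-1 and 10 in TOV21G, and the median log2 difference was 1.92. The PA-1 count of integrins was 5 with the hairpin as a block and 6 without the hairpin 2 library of TOV21G. The epithelial laminin chain LAMA3 spanned 0 to 0.04 against 11.5 to 21 TPM (912-fold, 95% counting interval 312 to 4426). The widespread chains LAMB1 and LAMC1 spanned 123 to 132 against 348 to 462 TPM and 183 to 252 against 546 to 1007 TPM. ITGA3, which pairs with ITGB1 as a laminin receptor, spanned 9.36 to 39.5 against 317 to 823 TPM (log2 fold change 4.44). ITGB3, a subunit of the vitronectin receptor, was at 0.58, 0.47 and 0.43 TPM in PA-1 and 146, 99.6 and 496 TPM in TOV21G (log2 fold change 9.18, SE 0.85, adjusted p = 0.000152). Of 29 listed annexin and S100 genes 18 passed the filter, of which 1 was higher in PA-1 and 13 in TOV21G, and the median log2 difference was 1.83. S100A6, a small calcium-binding protein, was at 0 TPM in all 3 PA-1 libraries and 3014, 2157 and 2869 TPM in TOV21G (at least 1237-fold higher in TOV21G, adjusted p = 2.68e-05). It was restricted to TOV21G although S100A4 and S100A11 were present in both lines, at 233 to 339.5 against 642 to 1939.6 TPM and 265 to 468 against 2105 to 2397 TPM.

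Genes of differentiated germ layers and of germ cells were mixed, and few of the germ cell genes passed the filter. Of 58 listed germ cell and cancer testis genes 13 passed the filter, of which 5 were higher in PA-1 and 3 in TOV21G, and the median log2 difference was -0.50, so most of that list was below the filter in both lines. DAZL, an RNA-binding protein of germ cells, was at 6.48, 22.6 and 31.2 TPM in PA-1 and 0 TPM in all 3 TOV21G libraries (at least 120.2-fold higher in PA-1, adjusted p = 0.00113). PRAME, a cancer testis antigen, was at 0, 0.33 and 0 TPM in PA-1 and 65.4, 91.4 and 51.4 TPM in TOV21G (log2 fold change 9.33, SE 0.70, adjusted p = 6.49e-05). Of 27 listed endoderm and yolk sac genes 13 passed the filter, of which 5 were higher in PA-1 and 5 in TOV21G, and the median log2 difference was 0.16. CER1, a secreted Nodal and BMP antagonist, was at 17.6, 18.7 and 31 TPM in PA-1 and 0 TPM in all 3 TOV21G libraries (at least 78.7-fold higher in PA-1, adjusted p = 0.000235). CXCR4, a chemokine receptor of definitive endoderm, was at 0, 0.4 and 0.4 TPM in PA-1 and 94.1, 121 and 59.5 TPM in TOV21G (log2 fold change 8.48, SE 0.56, adjusted p = 4.38e-05). Of 34 listed mesoderm genes 21 passed the filter, of which 8 (38.1%) were higher in PA-1 and 7 (33.3%) in TOV21G. Over all tested genes the shares were 24.1% and 24.6%. The median log2 difference was 0.05. TBX18, of the urogenital and cardiac mesenchyme, spanned 0 against 4.69 to 8.62 TPM (at least 106-fold), and OSR1, of the intermediate mesoderm, spanned 0 to 0.41 against 3.16 to 15.8 TPM (log2 fold change 5.88), both higher in TOV21G.

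Imprinted genes, which are expressed from 1 parental copy, were mixed as a list, with a block of neighbours on chromosome 15 that differed together. Of 53 listed genes 38 passed the filter, of which 15 (39.5%) were higher in PA-1 and 11 (28.9%) in TOV21G. Over all tested genes the shares were 24.1% and 24.6%. The median log2 difference was -0.20. The TOV21G count was 7 in the limma fits to log2 TPM. NDN, MKRN3 and MAGEL2, adjacent paternally expressed genes of the Prader-Willi region on chromosome 15, were restricted to PA-1. NDN was at 40.3, 40.9 and 37.5 TPM in PA-1 and 0 TPM in all 3 TOV21G libraries (at least 143-fold higher in PA-1, adjusted p = 3.88e-05). MKRN3 spanned 9.14 to 10.5 against 0 TPM (at least 46.2-fold), and MAGEL2 spanned 2.26 to 2.99 against 0 TPM (at least 23-fold). DLK1, a Notch-related growth regulator, spanned 4.89 to 8.41 against 0 to 0.03 TPM (619-fold, 95% counting interval 111 to 24496). On the other side, SLC22A18, a transporter, spanned 1.5 to 2.18 against 17.3 to 25.2 TPM (log2 fold change 3.66), and NLRP2 spanned 0.09 to 0.13 against 24.8 to 45.1 TPM (log2 fold change 8.47). Parental origin was not measured.

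Genes that write, read and remove DNA methylation were more often higher in PA-1 in the fit to all 6 libraries. Of 26 listed genes 23 passed the filter, of which 10 (43.5%) were higher in PA-1 and 4 (17.4%) in TOV21G. Over all tested genes the shares were 24.1% and 24.6%. The median log2 difference was -0.46. The PA-1 count was 6 without the hairpin 1 or the control library of PA-1. UHRF1, which guides the maintenance methyltransferase, spanned 59.8 to 87.2 against 10.5 to 23.5 TPM (log2 fold change -2.05). DNMT3B, the de novo enzyme of pluripotent cells, spanned 131 to 199.7 against 38.9 to 52.9 TPM (log2 fold change -1.64). TET1, which oxidises methylcytosine, spanned 56.1 to 65.3 against 7.26 to 10.9 TPM (log2 fold change -2.52), whereas TET2 spanned 6.97 to 9.44 against 19.2 to 26.9 TPM (log2 fold change 1.64). TET1 was thus higher in PA-1 and TET2 in TOV21G. MBD1, a methyl-CpG reader, was at 0.16, 0.27 and 0.26 TPM in PA-1 and 29.2, 40.8 and 39.4 TPM in TOV21G (log2 fold change 7.10, SE 0.28, adjusted p = 1.03e-05), nearly absent from PA-1. The cause of this, and of the low GPX1 given below, was not tested.

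SWI/SNF complexes move nucleosomes along DNA. Of 30 listed SWI/SNF genes 28 passed the filter, of which 10 (35.7%) were higher in PA-1 and 5 (17.9%) in TOV21G. Over all tested genes the shares were 24.1% and 24.6%. The median log2 difference was -0.40. The PA-1 count was 5 or 6 without any 1 PA-1 library, and the TOV21G count was 3 without either PA-1 knockdown library. ARID1A, the subunit often lost in clear cell carcinoma, was at 88.3, 79.9 and 73.9 TPM in PA-1 and 14.8, 18.8 and 13.1 TPM in TOV21G (log2 fold change -2.23, SE 0.17, adjusted p = 6.51e-05). Its RNA was thus present in both lines. Mutations and protein were not measured, so the RNA level does not show whether either line keeps the protein. SMARCA2, an ATPase of the complex, was at 0.18, 1.99 and 1.99 TPM in PA-1 and 21.1, 16.2 and 11.5 TPM in TOV21G (log2 fold change 4.39, SE 0.63, adjusted p = 0.00105). BRD7 and SMARCC1 were lower in TOV21G, at 162 to 183 against 51 to 78 TPM and 212 to 225 against 75.1 to 112 TPM.

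Receptor genes were more often higher in PA-1. Of 46 listed receptor genes 38 passed the filter, of which 19 (50%) were higher in PA-1 and 8 (21.1%) in TOV21G. Over all tested genes the shares were 24.1% and 24.6%. The median log2 difference was -0.95. KDR, a VEGF receptor, was at 18.3, 21.1 and 51.2 TPM in PA-1 and 0 TPM in all 3 TOV21G libraries (at least 375-fold higher in PA-1, adjusted p = 0.000334). ROR2, a WNT5A receptor, was at 94.5, 78.7 and 58.4 TPM in PA-1 and 0, 0 and 0.1 TPM in TOV21G (2653-fold higher in PA-1, 95% counting interval 734 to 21911, adjusted p = 1.89e-05). ERBB4, a neuregulin receptor, was at 0 TPM in all 3 PA-1 libraries and 14.4, 4.99 and 12.3 TPM in TOV21G (at least 343-fold higher in TOV21G, adjusted p = 0.000342). MET, the hepatocyte growth factor receptor, spanned 17.7 to 23.9 against 143 to 194 TPM (log2 fold change 3.32), higher in TOV21G. All 25 listed ERK-responsive genes passed the filter, of which 4 were higher in PA-1 and 11 in TOV21G, and the median log2 difference was 1.11. The PA-1 count was 2 without any 1 PA-1 library or the TOV21G control. The EGFR ligands TGFA and EREG were near 0 in PA-1, at 0.04 to 0.23 against 47.5 to 141 TPM and 0 to 0.1 against 11.7 to 76.6 TPM. EGR1, an immediate early gene of the same pathway, was higher in PA-1, at 87.1 to 172 against 15.6 to 37.2 TPM.

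WNT genes were higher in PA-1 more often than in TOV21G. Of 60 listed genes 39 passed the filter, of which 19 (48.7%) were higher in PA-1 and 11 (28.2%) in TOV21G. Over all tested genes the shares were 24.1% and 24.6%. The median log2 difference was -0.99. The TOV21G count was 7 in the knockdown libraries alone and without any 1 PA-1 library. SFRP2, a secreted WNT modulator, was at 779, 525 and 526 TPM in PA-1 and 0 TPM in all 3 TOV21G libraries (at least 2328-fold higher in PA-1, adjusted p = 2.68e-05). SFRP2 was among the 20 genes with the widest gap in favour of PA-1, and its promoter window holds the letters of the octamer. The 250 bases before its start at chr4:153789084-153789333 (GRCh38.p14, minus strand, RefSeq) are printed 5′ to 3′ with the octamer in capitals, here in its reverse complement, which begins 35 bases before the start.
SFRP2: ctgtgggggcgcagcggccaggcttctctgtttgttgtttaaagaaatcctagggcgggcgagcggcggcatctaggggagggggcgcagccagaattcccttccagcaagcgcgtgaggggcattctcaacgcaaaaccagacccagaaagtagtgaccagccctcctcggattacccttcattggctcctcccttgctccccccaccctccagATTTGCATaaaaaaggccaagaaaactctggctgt
The octamer ATGCAAAT, the letters of the POU family site, on either strand, lay in 1.66% of all 27305 windows, in 1.72% for genes higher in PA-1, in 1.3% for genes higher in TOV21G and in 1.15% for genes not called. The AP-1 letters TGANTCA lay in 6.6% of all windows, in 3.95% for PA-1, in 4.82% for TOV21G and in 3.59% for genes not called. LEF1, a nuclear WNT effector, spanned 19.7 to 31 against 0 to 0.2 TPM (396-fold, 95% counting interval 135 to 1923), and the WNT target SP5 spanned 3.73 to 6.22 against 0 TPM (at least 19.1-fold). DKK1, a secreted WNT antagonist, was at 0.18, 0.27 and 0.29 TPM in PA-1 and 347, 70.3 and 112 TPM in TOV21G (log2 fold change 9.60, SE 0.90, adjusted p = 0.000164).

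Genes of the TGF-beta, BMP and Nodal pathways were divided between the lines. Of 51 listed genes 44 passed the filter, of which 14 (31.8%) were higher in PA-1 and 16 (36.4%) in TOV21G. Over all tested genes, which were also divided, the shares were 24.1% and 24.6%. The median log2 difference was -0.18. FST, the activin-binding protein follistatin, was at 656, 966 and 681 TPM in PA-1 and 0, 0.07 and 0.06 TPM in TOV21G (16339-fold higher in PA-1, 95% counting interval 4523 to 134924, adjusted p = 7.04e-06). GREM1, a BMP antagonist, was at 91.2, 67.8 and 67.4 TPM in PA-1 and 0.07, 0 and 2.34 TPM in TOV21G (log2 fold change -6.16, SE 1.23, adjusted p = 0.00471). BMP target genes ID1 and ID2 were higher in TOV21G, at 87.8 to 119.7 against 294 to 702 TPM and 57.3 to 108 against 275 to 709 TPM. GDF15, a stress-induced member of the family, spanned 12.5 to 45.1 against 653 to 1432 TPM (log2 fold change 5.34). PA-1 thus held more of the antagonists named here, and TOV21G more of the ID genes.

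Inflammatory genes that were called were higher in TOV21G with a single exception. Of 50 listed genes 36 passed the filter, of which 1 was higher in PA-1 and 27 in TOV21G, and the median log2 difference was 2.19. CXCL1, a neutrophil chemokine, was at 0 TPM in all 3 PA-1 libraries and 143, 179.5 and 219 TPM in TOV21G (at least 440.4-fold higher in TOV21G, adjusted p = 4.13e-05). IL18 was at 2.94, 2.82 and 2.24 TPM in PA-1 and 324, 341 and 232 TPM in TOV21G (log2 fold change 6.98, SE 0.25, adjusted p = 7.11e-06). The complement protein C3 was at 0.14, 0.39 and 0.47 TPM in PA-1 and 45.1, 136 and 92.5 TPM in TOV21G (log2 fold change 8.20, SE 0.57, adjusted p = 5.38e-05). The exception was IL1A, at 1.81, 16.4 and 49 TPM in PA-1 and 0, 0.33 and 0.07 TPM in TOV21G (log2 fold change -7.23, SE 1.45, adjusted p = 0.00487). Of 65 listed antigen presentation and interferon genes 50 passed the filter, of which 4 were higher in PA-1 and 33 in TOV21G, and the median log2 difference was 1.20. The PA-1 count was 2 without any 1 PA-1 library. HLA-B spanned 12.6 to 23.3 against 122 to 239.9 TPM (log2 fold change 3.40). Reads of HLA genes can map to near-identical copies, so this value is uncertain. PSMB8, an immunoproteasome subunit, spanned 0.52 to 5.08 against 43.8 to 75.5 TPM (log2 fold change 4.62), and the interferon-induced MX1 spanned 0 against 2.79 to 10.7 TPM (at least 42-fold). IFI16, a sensor of nuclear DNA, was higher in PA-1, at 31.7 to 39.3 against 1.85 to 9.62 TPM (log2 fold change -2.89).

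Coagulation genes, of interest because clear cell carcinoma is associated with thrombosis, were more often higher in TOV21G. Of 35 listed genes 25 passed the filter, of which 4 (16%) were higher in PA-1 and 11 (44%) in TOV21G, and the median log2 difference was 1.29. Over all tested genes the shares were 24.1% and 24.6%. Beside the fibrinogen chains, TFPI, which inhibits tissue factor, spanned 26.1 to 30.9 against 159 to 485 TPM and the thrombomodulin gene THBD spanned 0 against 0.38 to 2.65 TPM, both higher in TOV21G.

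Glucose and glycogen genes were divided about evenly. Of 50 listed genes 46 passed the filter, of which 13 were higher in PA-1 and 12 in TOV21G, and the median log2 difference was 0.04. These shares lay close to those over all tested genes. PDK4, a kinase that shuts off pyruvate dehydrogenase, was at 0 TPM in all 3 PA-1 libraries and 649, 463 and 330.4 TPM in TOV21G (at least 4318-fold higher in TOV21G, adjusted p = 4.19e-05). HKDC1, a hexokinase relative, was at 0.05, 0.33 and 0.42 TPM in PA-1 and 207, 278 and 146 TPM in TOV21G (log2 fold change 9.70, SE 0.56, adjusted p = 2.59e-05). The glucose transporter SLC2A3 was at 776, 741 and 681 TPM in PA-1 and 22.1, 85.8 and 6.7 TPM in TOV21G (log2 fold change -4.18, SE 0.80, adjusted p = 0.00402). SLC2A1, the other main transporter, also was higher in PA-1, at 262 to 376 against 36.3 to 88.9 TPM (log2 fold change -2.29). Muscle glycogen phosphorylase PYGM was higher in PA-1, at 10.5 to 14.7 against 0.05 to 0.14 TPM, and the brain form PYGB in TOV21G, at 51.3 to 61.7 against 93 to 131 TPM.

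Of 49 listed cystine uptake and oxidant defence genes 45 passed the filter, of which 10 were higher in PA-1 and 11 in TOV21G, and the median log2 difference was -0.05. These shares, 22.2% and 24.4%, lay close to those over all tested genes. SLC7A11, the cystine carrier that supplies glutathione synthesis, was at 84.2, 103 and 97.5 TPM in PA-1 and 3.78, 9.87 and 3.11 TPM in TOV21G (log2 fold change -4.15, SE 0.36, adjusted p = 0.00012). FTH1, the ferritin heavy chain that stores iron, was at 1657, 1534 and 1763 TPM in PA-1 and 13594, 8213 and 21833 TPM in TOV21G (log2 fold change 3.34, SE 0.40, adjusted p = 0.000454). NQO1, a quinone reductase induced by NRF2, was at 31.4, 37.6 and 41.5 TPM in PA-1 and 586, 265 and 159 TPM in TOV21G (log2 fold change 3.37, SE 0.48, adjusted p = 0.00108). Every PA-1 library had more SLC7A11 and less FTH1 and NQO1 than every TOV21G library. Of 46 listed NRF2 target genes 42 passed the filter, of which 2 were higher in PA-1 and 19 in TOV21G, and the median log2 difference was 0.57. The PA-1 count was 5 with the hairpin as a block and between 1 and 6 over all alternatives. SLC7A11 was one of the NRF2 targets higher in PA-1. GPX1, a glutathione peroxidase, was at 0, 0 and 0.46 TPM in PA-1 and 340.4, 571 and 443 TPM in TOV21G (3717-fold higher in TOV21G, 95% counting interval 1029 to 30702, adjusted p = 1.33e-05), and CBR1, a carbonyl reductase, spanned 0 against 74.2 to 109 TPM (at least 224-fold). SCD, a desaturase of fatty acids, was higher in PA-1, at 640.5 to 1250.1 against 57.5 to 156 TPM (log2 fold change -2.80). Of genes that promote ferroptosis, NOX4 was higher in PA-1, at 4.28 to 10.7 against 0 TPM, and HMOX1 and SAT1 in TOV21G, at 9.85 to 20.9 against 73.8 to 118 TPM and 74 to 214 against 957 to 2305 TPM. FTH1 has many near-identical processed copies, so its count is uncertain.

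CDKN1A, the cell cycle inhibitor p21, was at 22.9, 46.5 and 124 TPM in PA-1 and 719, 1299 and 2234 TPM in TOV21G (log2 fold change 4.65, SE 0.75, adjusted p = 0.00187). In both lines the hairpin 2 library had the most CDKN1A and the control the least, and the lines did not overlap. TNFRSF10A, a death receptor, spanned 0 against 16 to 19.3 TPM (at least 118-fold), and PLK2, a polo-like kinase, spanned 8.87 to 42.4 against 268 to 381 TPM (log2 fold change 3.95). CCNG1, which encodes a cyclin, and the receptor EDA2R were higher in PA-1, at 541 to 818 against 106 to 216 TPM and 14.5 to 26.6 against 0 to 0.95 TPM.

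Genes of DNA replication and mitosis were higher in PA-1 in most cases, with modest fold changes. All 53 listed genes passed the filter, of which 42 were higher in PA-1, and the median log2 difference was -1.50. Without the control library of PA-1 the count was 27. The helicase subunit MCM4 was at 256, 227 and 198 TPM in PA-1 and 72.3, 52.1 and 27.3 TPM in TOV21G (log2 fold change -2.01, SE 0.34, adjusted p = 0.00214). The checkpoint kinase BUB1 was at 137, 134 and 112 TPM in PA-1 and 41.3, 21.6 and 15.3 TPM in TOV21G (log2 fold change -2.14, SE 0.37, adjusted p = 0.00236). GINS2, a replication fork protein, was at 56.7, 50.4 and 28.4 TPM in PA-1 and 12.2, 8.95 and 2.76 TPM in TOV21G (log2 fold change -2.34, SE 0.51, adjusted p = 0.00716). These 3 were higher in every PA-1 library than in any of TOV21G.

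Retinoic acid, made from retinol by dehydrogenases and carried by binding proteins, drives differentiation of teratocarcinoma cells. The list read here joined genes of retinoid oxidation with genes of drug efflux. Of its 35 genes 29 passed the filter, of which 9 (31.0%) were higher in PA-1 and 9 (31.0%) in TOV21G. Over all tested genes the shares were 24.1% and 24.6%. The median log2 difference was 0.02, and the retinoid genes were not counted apart from the efflux genes. CRABP1, which carries retinoic acid in the cytoplasm, was at 626, 499 and 308 TPM in PA-1 and 0 TPM in all 3 TOV21G libraries (at least 483-fold higher in PA-1, adjusted p = 8.24e-05). CRABP2 was at 546, 447 and 373 TPM in PA-1 and 37.5, 31.9 and 28.9 TPM in TOV21G (log2 fold change -3.61, SE 0.23, adjusted p = 3.7e-05). CYP26A1, which degrades retinoic acid, spanned 10.4 to 22.5 against 0.55 to 1.62 TPM (log2 fold change -3.61). RDH10, which makes retinal, was at 6.71, 9.59 and 7.3 TPM in PA-1 and 525, 715 and 260.1 TPM in TOV21G (log2 fold change 6.13, SE 0.39, adjusted p = 3.89e-05). With ALDH1A1 and ALDH1A2, the latter at 0 to 0.05 against 1.96 to 9.77 TPM, TOV21G held more of the named enzymes of synthesis. ABCG2, a drug efflux pump, was higher in PA-1, at 6.16 to 13.4 against 0 to 0.05 TPM.

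Markers of other cell types were read in the same libraries. Of 9 blood cell markers only CD68 reached 1 TPM in all 3 libraries of either line, and the sum of the 9 was 3.46 to 7.99 TPM in PA-1 and 3.3 to 9.57 TPM in TOV21G, with HBB and HBA1 at 0 in all 6. Of 6 endothelial markers 5 were higher in PA-1, where they summed to 83 to 130.2 TPM against 0.15 to 1.2 TPM in TOV21G. PECAM1, an endothelial adhesion molecule, was at 46.6, 34.9 and 50.8 TPM in PA-1 and 0.09, 0.16 and 0 TPM in TOV21G (log2 fold change -9.19, SE 0.50, adjusted p = 2.14e-05). CDH5, the endothelial cadherin, spanned 5.23 to 16.5 against 0.03 to 1.08 TPM, and TEK, the angiopoietin receptor, spanned 11 to 15.9 against 0 to 0.06 TPM. VWF was low, at 0.67 to 1.88 against 0 to 0.06 TPM, and CLDN5 was at most 0.25 TPM. Of 7 fibroblast markers 3 were higher in PA-1 and 1, DCN, in TOV21G, at 0 to 0.03 against 1.99 to 4.16 TPM. COL3A1 was at or near 0 in both lines. COL1A1 spanned 34.2 to 73.9 against 3.1 to 63.6 TPM and was not called. The part of these cell type markers in the results above was not tested. The nuclear transcript MALAT1 was at 238, 361 and 291 TPM in PA-1 and 1007, 2504 and 4232 TPM in TOV21G (log2 fold change 3.29, SE 0.51, adjusted p = 0.00154), and its part was not tested either.

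Called genes were not spread evenly over the chromosomes. Of the tested genes, 14557 had a position in the RefSeq table. On chromosome 10 the median log2 fold change of 588 genes was 0.51, with 41.5% higher in TOV21G and 14.3% higher in PA-1, against 24.6% and 24.1% over all tested genes. On chromosome 21 the median was 0.19 over 148 genes, with 33.1% higher in TOV21G. On chromosome 18 it was -0.25 over 204 genes, with 35.3% higher in PA-1. All other chromosomes had medians between -0.15 and 0.12. DNA copy number was not measured.

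**Figure D4:**
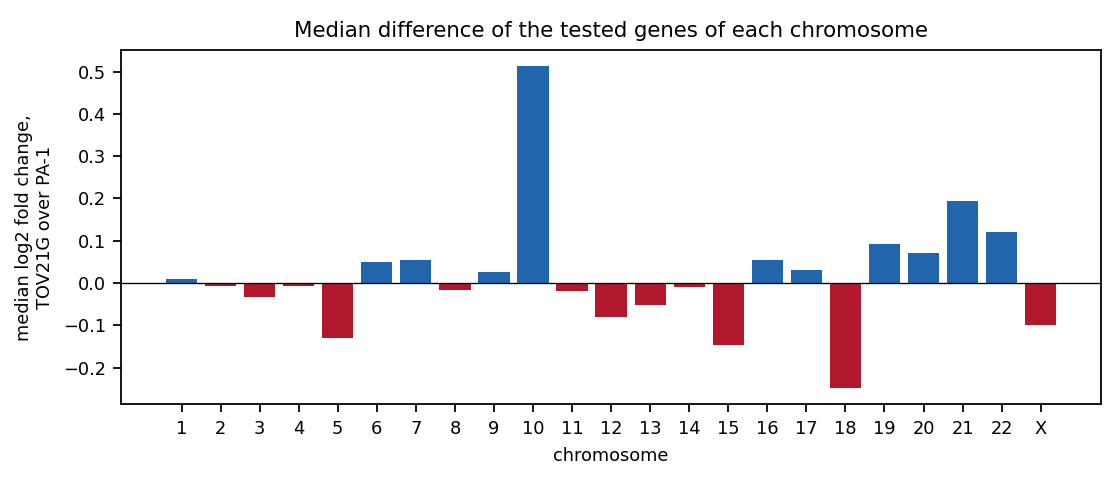
Median log2 fold change, TOV21G over PA-1, of the tested genes on each chromosome. Blue bars are above 0 (higher in TOV21G) and red bars below. Chromosome 10 stands at 0.51, and chromosome 18 at -0.25 is the lowest.

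Restricted genes also lay side by side. Among 13729 positioned genes at 1 TPM or more in all 3 libraries of a line, runs of at least 3 adjacent genes restricted to the same line numbered 14 for PA-1 and 11 for TOV21G. These runs were described after their values were seen. The longest was a block of 8 genes restricted to PA-1 at chr19:56368099-56530212 (GRCh38.p14), mostly zinc finger genes from ZNF542P to ZNF471, around ZNF667. One member, ZNF667, was at 14.9, 13.6 and 13.7 TPM in PA-1 and 0 TPM in all 3 TOV21G libraries (at least 131-fold higher in PA-1, adjusted p = 4.36e-05). In TOV21G the longest was the block of 6 genes from HOXB5 past HOXB13 at chr17:48591257-48743465, followed by blocks of 4 in HOXC, in HOXD, around POU3F3 and, on chromosome 21, from PCP4 to RIPK4, which includes MX1.

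The 2 control libraries, which carry no MEX3A hairpin, served as a check on the line difference. A fit to the 4 knockdown libraries alone called 5902 of 15508 genes (38.1%). Of 3032 genes higher in PA-1 in that fit, 2983 (98.4%) lay the same way between the 2 controls and 2180 (71.9%) by at least 2-fold. Of 2870 higher in TOV21G, 2826 (98.5%) lay the same way and 2263 (78.9%) by at least 2-fold. Of 9606 genes not called, 76.6% lay the same way and 16.7% by at least 2-fold. With 1 control a line the controls have no error of their own. No gene passed edgeR's test that the line difference depends on the hairpin target (0.0% called). Of the 15129 genes tested, 626 had an unadjusted p under 0.05, a share below the 0.05 that uniform p-values would give. That fit had 2 residual degrees of freedom and 1 control a line, so it may have missed such genes.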

How the data were processed

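RNA of the 6 libraries was sequenced from polyadenylated, strand-marked libraries, per the labels' protocols. The submitters' processing notes name cutadapt 1.12, STAR 2.5.3a, RSEM 1.2.31, edgeR 3.26.8 and the build hg38. The strand setting of the counting is not given in the sources used here. Per the file headers, the authors deposited RSEM expected counts, which are estimates and were rounded to whole numbers, and TPM. The counts of 39282 genes were fitted with edgeR 4.0.16 (limma 3.58.1, R 4.3.3) with the line as the only term, TMM scaling and edgeR's filter on low counts by line, with 4 residual degrees of freedom. The fit was also run on simulated counts, in which few genes changed and a line's libraries were like replicates. The real data differ in both respects, so that run gives no error rate for the calls here. DESeq2 1.42.0, limma on log2 TPM with a pseudocount of 1 or 0.1, other scalings and fits with 1 library left out were the alternatives. Libraries with the same hairpin deviated together in the 2 lines (correlations 0.227, 0.255 and 0.32 over 15129 genes, which are not independent). The cause of this was not tested. The main fit left this pairing out, and a fit with the hairpin as a block is given below. The members and 35 lists and 29 families were chosen with earlier results of these data known. Named are always-given genes, the 20 widest gaps per line and up to 8 members per list and direction, by the gap in log2 CPM (prior count 2), and members that went against their list. Some genes and lists that this covers are not reported here. KRT18 and other marker levels were given because all markers were read.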

Additional observations from a re-analysis of the deposited data

How the results depend on the processing

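With the replicate block (hairpin as a term), 4047 genes were higher in PA-1 and 3913 in TOV21G, or 7960 in all, and the block moved no count of calls reported here by more than 1.5 times except the PA-1 counts of integrins and NRF2 targets given above. Leaving out 1 library gave 2811 to 3950 genes higher in PA-1, 2890 to 3919 higher in TOV21G and 5703 to 7869 in either direction, with 457 to 537 genes restricted to PA-1 and 324 to 366 to TOV21G. A minimum of 5 TPM instead of 1 left 191 genes restricted to PA-1 and 108 to TOV21G. In the limma fits to log2 TPM, which change the test, the filter and the scaling together, the median shift of a gene's log2 difference was -0.177 to -0.182, and 40.76% to 40.86% of called genes were higher in TOV21G, against 50.52%. No call reversed in any of the 16 alternatives, which kept 74.1% to 99.4% of the calls. Of 594 called genes that the naming rule covers, 508 were called in every alternative and 86 were lost in at least 1. With 3 libraries a line, a gene that was not called may still differ.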

Other observations

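Gene families outside the programmes of either tumour type also differed. Of 13 listed SLC7 amino acid transporter genes 9 passed the filter, of which 6 were higher in PA-1, and the median log2 difference was -4.15, which took in SLC7A11 and, at 19.5 to 32.9 against 0 TPM (at least 104-fold), the cationic amino acid carrier SLC7A3. Of 22 listed ephrin and Eph receptor genes 17 passed the filter, of which 8 (47.1%) were higher in PA-1 and 4 (23.5%) in TOV21G. Over all tested genes the shares were 24.1% and 24.6%. The median log2 difference was -0.59. EPHA7 spanned 22.2 to 35.4 against 0 to 0.08 TPM (log2 fold change -9.55) and EPHA2 spanned 20.9 to 38.2 against 65.5 to 108 TPM (log2 fold change 1.79), the first higher in PA-1 and the second in TOV21G.

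Of 46 listed nuclear receptor genes 33 passed the filter, of which 12 (36.4%) were higher in PA-1 and 7 (21.2%) in TOV21G. Over all tested genes the shares were 24.1% and 24.6%. The median log2 difference was -0.05. Without the TOV21G control 11 were higher in TOV21G. The vitamin D receptor VDR spanned 0 to 0.24 against 2.64 to 5.41 TPM (log2 fold change 5.12), and PPARG, a regulator of fat metabolism, spanned 1.12 to 1.51 against 16.1 to 48.4 TPM (log2 fold change 4.41). Of 44 listed collagen genes 31 passed the filter, of which 12 (38.7%) were higher in PA-1 and 6 (19.4%) in TOV21G, and the median log2 difference was -0.85. COL11A1, a fibrillar collagen of cartilage, spanned 15.3 to 26.9 against 0 to 0.11 TPM (log2 fold change -8.78), and COL14A1 spanned 0.05 to 0.17 against 5.64 to 12.5 TPM (log2 fold change 6.79). Of 22 listed FGF genes 7 passed the filter, of which 5 were higher in PA-1 and 1 in TOV21G, and the median log2 difference was -2.97. FGF13, an intracellular member, spanned 33.5 to 40.8 against 0 TPM (at least 237-fold).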
